A study of Danio rerio with 17 samples.

Results

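The zebrafish genes mstnb, proca1, pdha1b, BOK, PLCL1 and MFSD6 had been picked as genes whose preference for one sorted cell fraction of the eye turns around between pre-cancerous and tumour tissue. They are 6 of the 31701 gene IDs in the count table, taken by Ensembl ID, and all 6 passed the filter on low counts. The fitted differences that led to their choice are therefore given as descriptions, without tests. In the single libraries, on which the choice itself rests, PLCL1 alone of the 6 turned around in every tissue. Its pattern, from sox10-high to sox10-low preference in every tissue, was met by 1.08% of all tested genes. For mstnb and proca1 the fitted tumour preference for the sox10-high fraction was close to 0 without 1 library. BOK was higher in that fraction in 3 of 4 tumours, with a fitted value that changed sign without 1 library. pdha1b was split between tumours, and MFSD6 had no clear preference before cancer.

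The samples came from the eyes of zebrafish carrying a red fluorescent reporter under the control of sox10, a transcription factor gene of neural crest and glia, in a model of malignant peripheral nerve sheath tumours. The eyes were dissociated with enzymes and the cells sorted by fluorescence into sox10-low (Low) and sox10-high (High) fractions, whose polyadenylated RNA was sequenced from both fragment ends. Control_Low (3 libraries, 4.6 to 5.0 months of age) held Low cells of fish with the reporter, sox10:RFP, and no brca2 mutation. PreC_Low and PreC_High (3 libraries each, 4.5 to 4.7 months) held both fractions of fish with the same reporter and homozygous brca2 hg5 alleles, labelled as pre-cancerous. Cancer_Low and Cancer_High (4 libraries each, 7.5 to 10.4 months) held both fractions of tumour tissue of that genotype. The reporter is shared by all 5 groups, and no High fraction of control fish was analysed here. In the mutant fish, codes in the labels tie every High library to the Low library of the same number, so that each tissue gives its own High to Low ratio. Each replicate has a tissue code of its own, and whether each tissue came from a separate animal is not stated in the labels. The p-values measure the spread between the libraries of a group. The main fit holds no term for tissue, so High and Low libraries of the same tissue enter it as independent.

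The 6 genes have little in common by function. mstnb encodes myostatin, a secreted TGF-beta family ligand known for limiting skeletal muscle growth; in mammals it signals through activin type II receptors and is held in check by follistatin proteins. pdha1b encodes an alpha subunit of the E1 enzyme of the pyruvate dehydrogenase complex, which feeds pyruvate into the citric acid cycle and is switched off by the pyruvate dehydrogenase kinases. BOK is a Bcl-2 family protein that promotes apoptosis in mammals. PLCL1 is, in mammals, a phospholipase C-like protein without catalytic activity that binds inositol trisphosphate (IP3). MFSD6 belongs to the major facilitator superfamily of membrane transporters, and the human PROCA1 protein is named for its interaction with cyclin A1.

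Library totals ran from 58711787 to 87244522 counts, with 20041 to 24179 genes detected. Values are library-scaled read counts (CPM) on totals scaled by trimmed mean of M values (TMM), as mean ± SD over libraries, and differences are log2 fold changes ± SE from edgeR. SOX10 (ENSDARG00000077467) followed the sort, at 1490 ± 142 CPM in PreC_High and 18.1 ± 7.36 CPM in PreC_Low (log2 6.37 ± 0.93, adjusted p = 0.000114). It stood at 748, 1389, 913 and 1053 CPM in Cancer_High and at 69.1, 16.04, 46.5 and 418 CPM in Cancer_Low (log2 2.90 ± 0.69, adjusted p = 0.00499), so Cancer_Low 4 lay far above the other Low libraries. Markers show what else differed between the groups. The photoreceptor genes reached a summed 18117 to 43251 CPM in Control_Low and 29481 to 61777 CPM in PreC_Low, against 1307 to 1659 CPM in PreC_High, 648 to 999 CPM in Cancer_Low and 402 to 513 CPM in Cancer_High. Within the list of 21, PDE6C and ROM1 were at 0 counts everywhere, and gnb1b alone held 365 to 488 CPM of the sum in Cancer_High. Without gnb1b that sum was 25.7 to 37.2 CPM. The 15 macrophage genes summed to 2475 to 9552 CPM in Cancer_Low and to at most 2711 CPM in the other groups, with 4 MFAP4 IDs at 0. Skeletal muscle genes (14 IDs) summed to at most 60.9 CPM in any library. The 12 glial and neural crest genes summed to 6631 to 7490 CPM in PreC_High and 1286 to 2174 CPM in Cancer_High, with SOX2 at 0. Of the 10 tested, 6 were called higher and 2 lower in Cancer_High than in Cancer_Low. Library indexes 1 to 9 hold Control and PreC and indexes 10 to 17 hold Cancer, so index range and stage cannot be told apart.

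In the Low fraction, 4 of the 6 genes were lower in every tumour library than in any control or pre-cancerous library. The mutant Low libraries entered the choice of these genes, so this is a description. The share of all genes with that pattern was not counted, so nothing is read from the count of 4. Over all tested genes, 15.5% were called lower in Cancer_Low than in Control_Low. That is another measure and does not stand in for the missing share. mstnb, proca1, pdha1b and BOK were well expressed in Low cells of control and pre-cancerous eyes and close to their PreC_High level in tumour Low cells. Before cancer all 4 were lower in High than in Low cells in each of the 3 tissues. Over all tested genes, the High and Low libraries before cancer did not overlap, in either direction, for 47.7%. In bulk fractions such as these, fewer cells of a type and less RNA per cell cannot be told apart.

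mstnb (ENSDARG00000069133) stood at 35.3, 49.6 and 52.2 CPM in Control_Low and at 28.4, 30.4 and 29.4 CPM in PreC_Low. PreC_High libraries had 1.61, 3.55 and 2.20 CPM. Every PreC_High library was thus below every PreC_Low library (log2 -3.58 ± 1.33), and Low exceeded High 17.6-fold, 8.56-fold and 13.4-fold in the 3 tissues. The Cancer_Low libraries had 2.09, 1.78, 1.42 and 1.54 CPM, against 1.41, 169, 1.41 and 3.07 CPM in Cancer_High. Cancer_High 2 stood apart with 12193 counts of mstnb, where the other 3 libraries of its group held 101, 96 and 204. In that tissue High exceeded Low 94.8-fold, while in the other 3 tumours the log2 ratio of High to Low was -0.57, -0.01 and 0.99. The fitted tumour difference of log2 4.68 ± 1.21 was 0.20 without Cancer_High 2 and 1.18 with the replicate number as a block (the replicate block). That block gives libraries of the same number a common term in all groups. It therefore ties different tissues of other stages too and is not a pairing by tissue alone. The interaction subtracts the pre-cancerous High to Low difference from that of the tumours. It was 8.26 ± 1.82 with all libraries, 3.78 without Cancer_High 2 and 4.65 with the replicate block. Cancer_High against PreC_High was log2 4.16 ± 1.33, and -0.32 without Cancer_High 2. Like the High to Low difference before cancer, the lower level of tumour Low cells held in all libraries. It was log2 -4.74 ± 1.24 against Control_Low and -4.10 ± 1.21 against PreC_Low.

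proca1 (ENSDARG00000069823) stood at 51.4, 27.9 and 24.2 CPM in Control_Low, and at 24.5, 38.1 and 27.4 CPM in PreC_Low. PreC_High had 0.674, 2.23 and 1.31 CPM. High was again below Low in each tissue, with no overlap between the groups (log2 -4.42 ± 1.15). Cancer_Low had 1.28, 0.991, 0.930 and 0.784 CPM, and Cancer_High 1.13, 24.3, 0.206 and 2.35 CPM. Cancer_High 2 was again the high library, and the tumours went in both directions, with log2 ratios of High to Low of -0.18, 4.62, -2.18 and 1.58. The fitted tumour difference was log2 2.81 ± 0.93, which became 0.30 without Cancer_High 2 and 0.89 with the replicate block. The interaction of proca1 was 7.23 ± 1.48, and 4.72 without Cancer_High 2. Against PreC_High, Cancer_High stood at log2 2.32 ± 1.02 with all libraries and at -0.19 without Cancer_High 2. The Low fraction of tumours lay at log2 -5.11 ± 1.05 against Control_Low.

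**Figure D1:**
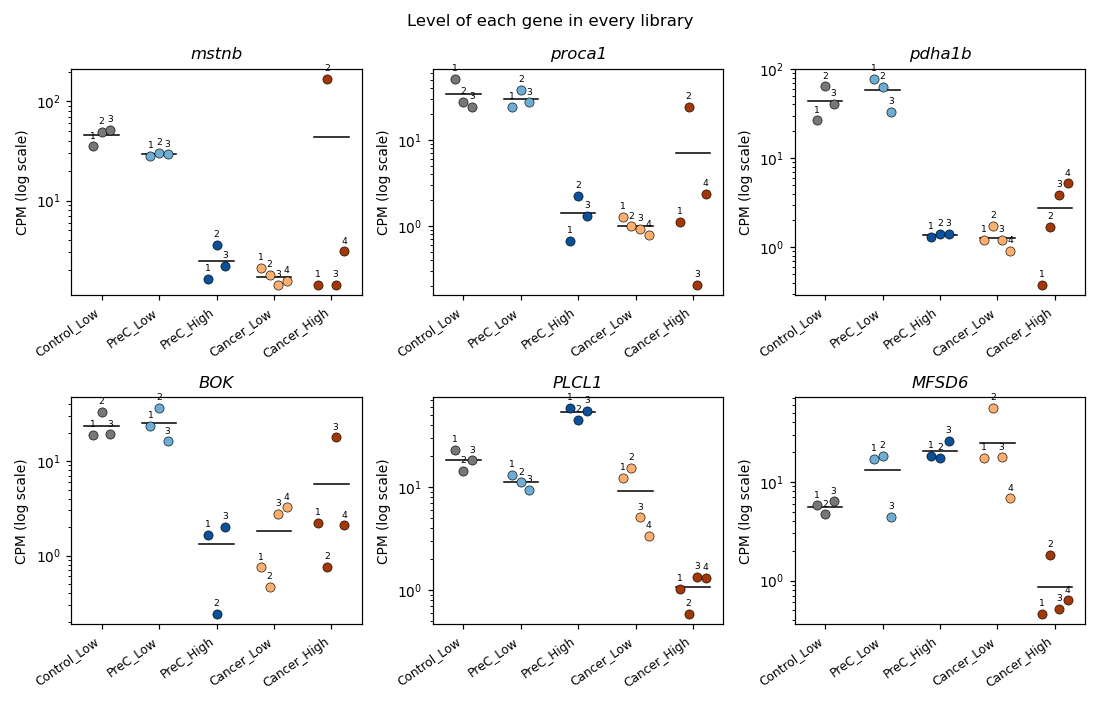
Level of the 6 genes in each library (CPM, log axis) by group, with 1 point per library and a bar at the group mean. mstnb and proca1 in Cancer_High 2 (169 and 24.3 CPM) stand above the other Cancer_High libraries, while PLCL1 and MFSD6 are low in all 4 of them.

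pdha1b (ENSDARG00000010555) had 26.5, 63.7 and 40.5 CPM in Control_Low and 77.5, 63.0 and 33.0 CPM in PreC_Low. PreC_High libraries had closely similar values of 1.30, 1.42 and 1.42 CPM, which gave log2 -5.39 ± 0.74 against PreC_Low. Cancer_Low held 1.21, 1.74, 1.21 and 0.904 CPM, and Cancer_High 0.376, 1.68, 3.85 and 5.23 CPM. No single library carried the tumour value, and the tumours were split: High was below Low in tumour 1 (log2 -1.69), at its level in tumour 2 (-0.05), and above it in tumours 3 and 4 (1.67 and 2.53). The fitted tumour difference was log2 1.13 ± 0.54, 0.64 without Cancer_High 4 and 0.68 with the replicate block. The interaction was 6.52 ± 0.89, of which most was the PreC difference. Tumour Low cells stood at log2 -5.10 ± 0.64 against Control_Low.

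BOK (ENSDARG00000008807; the symbol is shared with a second ID described further on) had 19.0, 33.1 and 19.3 CPM in Control_Low and 23.6, 36.8 and 16.2 CPM in PreC_Low. PreC_High had 1.66, 0.241 and 2.03 CPM (log2 -4.28 ± 1.1), all below PreC_Low. Cancer_Low had 0.750, 0.467, 2.75 and 3.24 CPM, and Cancer_High 2.23, 0.763, 17.8 and 2.09 CPM. Cancer_High 3 was the high library here, not Cancer_High 2. The log2 ratio of High to Low was positive in 3 of 4 tumours, at 1.57, 0.71 and 2.70, and -0.63 in tumour 4. The fitted tumour difference of log2 1.67 ± 0.86 changed sign without Cancer_High 3, to -0.090, and was 1.09 with the replicate block. The interaction was 5.95 ± 1.39, and 4.19 without Cancer_High 3.

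Levels of mstnb, proca1, pdha1b and BOK were low together with the photoreceptor genes in PreC_High and Cancer_Low, and stood apart from them in the means of Cancer_High. The photoreceptor sum without gnb1b was in PreC_High 2.5% of its PreC_Low level, beside 8.34% for mstnb, 4.67% for proca1, 2.39% for pdha1b and 5.13% for BOK (ENSDARG00000008807). In Cancer_Low the sum was 1.03% of the PreC_Low level, beside 5.81%, 3.32%, 2.19% and 7.06% for the same genes in that order. Of 19 photoreceptor genes tested, 18 were called lower in PreC_High than in PreC_Low and all 19 lower in Cancer_Low than in Control_Low. In Cancer_High the sum was 0.0591% of the PreC_Low level, beside 149%, 23.3%, 4.81% and 22.4%, and 16 of the 19 photoreceptor genes were called lower in Cancer_High than in Cancer_Low. The Cancer_High means of mstnb and proca1 include the high Cancer_High 2, and that of BOK (ENSDARG00000008807) the high Cancer_High 3. The part of photoreceptor content in the values of these 4 genes was not tested. In Cancer_High 2 the photoreceptor sum without gnb1b was 26.7 CPM, within the 25.7 to 37.2 CPM of its group. The muscle genes of that library summed to 4.59 CPM, inside the group's 3.85 to 7.02 CPM. Its glial genes summed to 2174 CPM, where the other 3 libraries had 1286 to 1341 CPM. Its SOX10 level was the highest of the group, at 1389 CPM where the others had 748 to 1053 CPM. A glial sum without SOX10 was not computed, so these are not 2 separate observations. Cancer_High 3, the library with high BOK, had the highest macrophage sum of its group, 753 CPM. The part of these contents in the mstnb, proca1 and BOK values of Cancer_High 2 and 3 was not tested.

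PLCL1 (ENSDARG00000067676) turned from High to Low preference in every tissue. It had 58.9, 45.2 and 55.4 CPM in PreC_High and 13.1, 11.1 and 9.43 CPM in PreC_Low. Cancer_High had 1.03, 0.583, 1.34 and 1.31 CPM, and Cancer_Low 12.4, 15.4, 5.07 and 3.35 CPM. The groups overlapped at neither stage, and the log2 ratio of High to Low was 2.17, 2.02 and 2.56 before cancer and -3.59, -4.72, -1.92 and -1.35 in tumours. The larger change lay in the High fraction, which was log2 -5.64 ± 0.50 lower in Cancer than in PreC, at 9.48% of the PreC_Low mean against 473% before. The Low fraction of tumours differed from PreC_Low by log2 -0.31 ± 0.43, less than its SE. It was lower than Control_Low (23.0, 14.3 and 18.2 CPM) by more, at log2 -1.03 ± 0.43, and from -1.41 to -0.75 with any 1 library left out. The 2 fraction differences were 2.24 ± 0.49 before cancer and -3.09 ± 0.44 in tumours, and the interaction was -5.33 ± 0.66. Leaving out any 1 library kept them at 2.13 to 2.37, -3.36 to -2.70 and -5.60 to -4.94. The glial gene sum was also lower in Cancer_High than in PreC_High, as given above, and its part in the PLCL1 level was not tested.

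MFSD6 (ENSDARG00000054583, with a symbol shared by a second ID) was low in tumour High cells without a clear fraction difference before cancer. PreC_High had 18.3, 17.5 and 25.9 CPM, and PreC_Low 17.1, 18.3 and 4.396 CPM. The log2 ratio of High to Low was 0.10 and -0.06 in 2 tissues and 2.56 in the third, whose Low library was the low one. The fitted difference was 0.63 ± 0.67, 0.22 without PreC_Low 3 and 0.99 with the replicate block. Cancer_High had 0.459, 1.83, 0.514 and 0.633 CPM, and Cancer_Low 17.5, 56.3, 17.8 and 6.79 CPM. Every tumour had more in Low than in High cells, with log2 ratios of -5.26, -4.94, -5.11 and -3.42 (fitted -4.84 ± 0.69). Control_Low, at 5.79, 4.68 and 6.36 CPM, was below 2 of the 3 PreC_Low libraries and below all 4 Cancer_Low libraries (log2 2.13 ± 0.68 for Cancer_Low against Control_Low, 1.32 without Cancer_Low 2). Like PLCL1, MFSD6 (ENSDARG00000054583) differed between stages mainly in the High fraction, by log2 -4.58 ± 0.69.

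**Figure D2:**
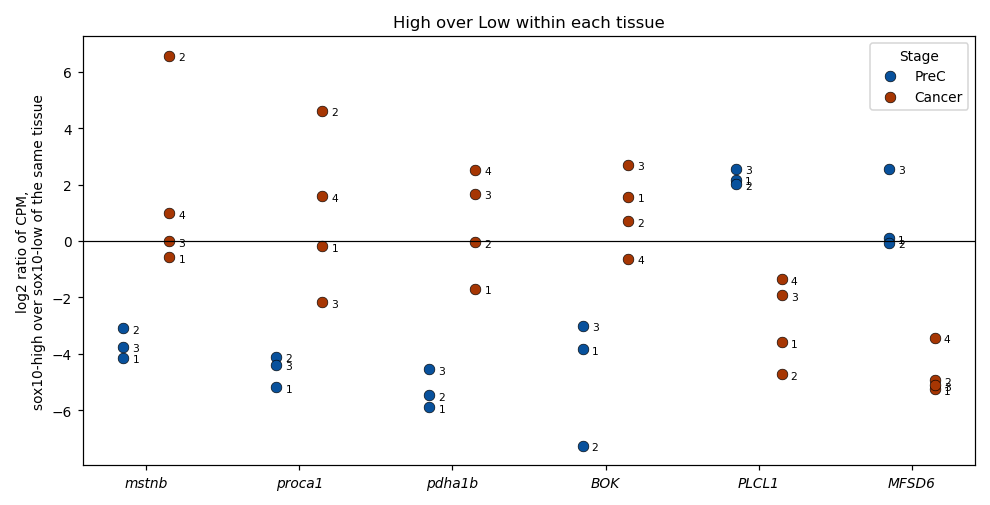
Log2 ratio of High to Low CPM of each gene in each of the 3 pre-cancerous tissues and 4 tumours, with a line at equal levels. PLCL1 alone lies on one side of the line before cancer (2.02 to 2.56) and on the other in all tumours (-4.72 to -1.35).

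Set against all genes, the libraries of High and Low did not overlap before cancer for 5 of the 6 genes, all but MFSD6 (ENSDARG00000054583), where 47.7% of tested genes had no overlap. In Cancer this held for PLCL1 and MFSD6 (ENSDARG00000054583), 2 of 6, against 28.9% of tested genes. High was above Low in every pre-cancerous tissue and below it in every tumour for 1.08% of tested genes, PLCL1 among them. The opposite pattern, below in every pre-cancerous tissue and above in every tumour, was met by 1.8% of tested genes and by none of mstnb, proca1, pdha1b and BOK (ENSDARG00000008807). Since the genes had been chosen on these contrasts, nothing is read from these counts. Over all 23299 genes, 5997 had fitted differences of opposite sign at the 2 stages, and 79 of these were called at both, 46 from lower to higher and 33 from higher to lower. Ordered by the interaction, mstnb was the 122nd from the top, proca1 the 219th, pdha1b the 328th and BOK (ENSDARG00000008807) the 450th, and MFSD6 (ENSDARG00000054583) was the 253rd and PLCL1 the 273rd from the bottom.

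**Figure D3:**
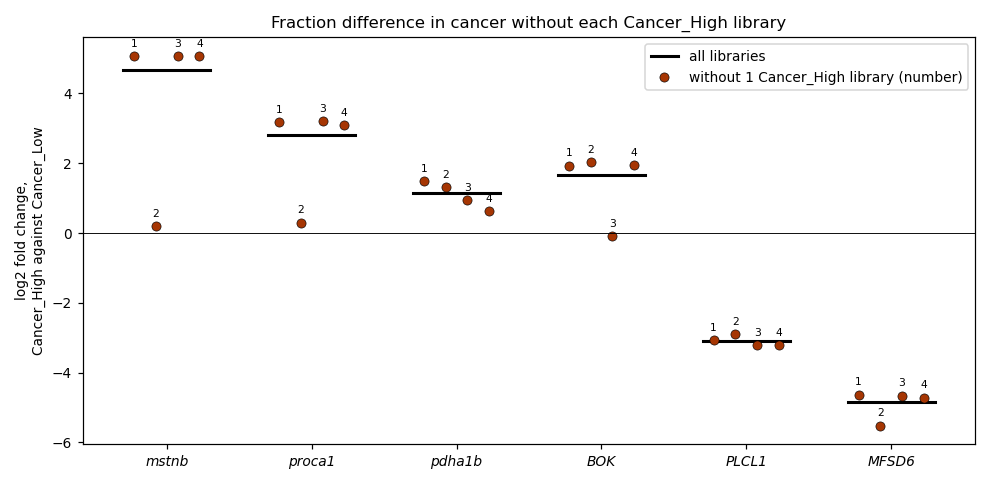
Fitted log2 difference of Cancer_High against Cancer_Low for each gene with all libraries and with each Cancer_High library left out in turn. The values of mstnb and proca1 drop to 0.20 and 0.30 without Cancer_High 2 and that of BOK to -0.090 without Cancer_High 3. Those of PLCL1 and MFSD6 stay negative.

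A single Cancer_High library far above the others was seen in other genes too. Counting genes whose highest Cancer_High library had at least 10 CPM and at least 10 times the next one, 23, 37, 49 and 33 genes of 23299 were found for Cancer_High 1 to 4 (0.0987%, 0.159%, 0.21% and 0.142%). mstnb, at 55.0 times the next library, and proca1, at 10.3 times, are among the 37 of Cancer_High 2. For BOK (ENSDARG00000008807) Cancer_High 3 was 8.01 times the next library, and for pdha1b the highest was 1.36 times the next.

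The controls place the Low values of PreC beside those of fish without the brca2 mutation. PreC_Low against Control_Low was log2 -0.64 ± 1.20 for mstnb, -0.20 ± 0.996 for proca1, 0.41 ± 0.61 for pdha1b, 0.10 ± 0.96 for BOK (ENSDARG00000008807), -0.72 ± 0.47 for PLCL1 and 1.24 ± 0.68 for MFSD6 (ENSDARG00000054583). Each of the first 4 was smaller than its SE. That SE comes from 1 fit of all 5 groups, so for mstnb it also holds the spread of Cancer_High. The libraries of PreC_Low and Control_Low overlapped for proca1, pdha1b, BOK and MFSD6. Every PreC_Low library was below every Control_Low library for mstnb (28.4 to 30.4 against 35.3 to 52.2 CPM) and PLCL1 (9.43 to 13.1 against 14.3 to 23.0 CPM). The share of all genes without overlap there was not counted. The mutant Low libraries also entered the choice of the genes, so these are descriptions. 1.07% of tested genes were called in that comparison.

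The course over the 17 libraries was alike to differing degrees. Pearson's r of log2 CPM was 0.942 between mstnb and proca1, 0.827 between pdha1b and BOK (ENSDARG00000008807), 0.805 between proca1 and pdha1b and 0.783 between PLCL1 and MFSD6 (ENSDARG00000054583). It was 0.735 between mstnb and pdha1b, and lower for BOK (ENSDARG00000008807) with mstnb (0.493) and proca1 (0.548). Between mstnb, proca1, pdha1b and BOK on one side and PLCL1 and MFSD6 on the other it lay from -0.197 to 0.230. These describe 17 libraries that share 5 groups, and the genes were chosen for their group differences. The 3 genes closest to each member, of 15336 compared, were atp1b3b (r = 0.904), CERKL (0.902) and CHCHD10 (0.897) for mstnb, and FADS3 (0.936), OAZ2 (0.912) and brinp3b (0.911) for proca1. For pdha1b they were cadpsa (0.970), LAPTM4B (0.962) and slc25a18 (0.955), and for BOK (ENSDARG00000008807) SHANK3 (0.921), nhsl1a (0.921) and FAM107A (0.910). SEMA3B (0.944), TBX3 (0.935) and SH2D3C (0.934) were closest to PLCL1, and NRBP2 (0.941), rusc1 (0.924) and RALGDS (0.911) to MFSD6 (ENSDARG00000054583).

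Paralogues had no part in the choice of the 6 genes and were tested, but they were picked after the counts were seen. edgeR called the interaction of 0 of the 6 tested, with 2 at an unadjusted p under 0.05 and 2 called by DESeq2. Over all tested genes edgeR called 2.36% higher and 1.04% lower, so nothing is read from 0 of 6. Adjusted p-values here and below are from edgeR's quasi-likelihood test over 23299 genes. The second myostatin gene, mstna, had at most 1 count in any library and was not tested. pdha1a (ENSDARG00000012387), the other E1 alpha gene, had 87.7 ± 12.8, 83.9 ± 27.9, 109.5 ± 4.54, 128 ± 19.5 and 108 ± 34.6 CPM in Control_Low, PreC_Low, PreC_High, Cancer_Low and Cancer_High. It was called neither before cancer (log2 0.38 ± 0.30, adjusted p = 0.347) nor in tumours (-0.24 ± 0.26, 0.521), nor was its interaction (-0.63 ± 0.40, 0.441). Cancer_Low against Control_Low was log2 0.54 ± 0.28 for pdha1a and did not pass the test (adjusted p = 0.152), beside -5.10 ± 0.64 for pdha1b.

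The second BOK ID (ENSDARG00000052129) fell from 109 ± 28.1 CPM in Control_Low to 16.1 ± 14.1 CPM in Cancer_Low (log2 -2.75 ± 0.79, adjusted p = 0.0132). It stood at 70.8 ± 12.5 CPM in PreC_Low and was lower in PreC_High, at 2.67 ± 2.12 CPM (log2 -4.73 ± 0.96, adjusted p = 0.00149). In tumours High was below Low in all 4 tissues, but the difference did not pass the test (log2 -1.42 ± 0.73, adjusted p = 0.156). It did pass with the replicate block (-1.84, adjusted p = 0.0202). Its interaction was 3.31 ± 1.12 (adjusted p = 0.115, and 0.0392 by DESeq2). Without PreC_Low 3 and Cancer_Low 4 the interaction was 4.23 (edgeR adjusted p = 0.0442). BOK (ENSDARG00000052129) therefore shared the direction of the fall in the Low fraction with BOK (ENSDARG00000008807). Both IDs had an interaction above 0. In tumours High was below Low in 1 of 4 tissues for BOK (ENSDARG00000008807), whose fitted value changed sign without Cancer_High 3. Whether the 2 IDs differ in tumour High cells was not tested. How reads common to the 2 IDs were counted was not analysed here.

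Of the relatives of PLCL1, PLCL2 (ENSDARG00000098826) was lower in High cells at both stages, with 56.7 ± 11.4 CPM in PreC_Low against 19.4 ± 2.30 CPM in PreC_High (log2 -1.55 ± 0.35, adjusted p = 0.00316) and 69.8 ± 27.4 CPM in Cancer_Low against 17.9 ± 3.99 CPM in Cancer_High (log2 -1.97 ± 0.31, adjusted p = 0.000172). plcl5 (ENSDARG00000062575) was higher in High cells at both stages, by log2 1.73 ± 0.50 (adjusted p = 0.0144) and 1.83 ± 0.43 (adjusted p = 0.00488). The interaction was -0.42 ± 0.45 for PLCL2 (adjusted p = 0.700) and 0.10 ± 0.64 for plcl5 (adjusted p = 0.969), beside -5.33 ± 0.66 for PLCL1. In Cancer_Low against Control_Low neither passed with all libraries (PLCL2 log2 0.85 ± 0.33, adjusted p = 0.0539, plcl5 -0.94 ± 0.45, adjusted p = 0.118). Both did with the replicate number as a block (0.92, adjusted p = 0.0326, and -1.26, adjusted p = 0.0316). Without PreC_Low 3 and Cancer_Low 4 both passed too (1.06, adjusted p = 0.00357, and -1.65, adjusted p = 0.00252).

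The second MFSD6 ID (ENSDARG00000032318) was lower in High cells before cancer, at 2.16 ± 1.26 CPM against 11.3 ± 7.06 CPM (log2 -2.39 ± 0.64, adjusted p = 0.00928). The call was lost without PreC_Low 1 (adjusted p = 0.0578). In tumours it was again lower in High, at 1.03 ± 0.462 CPM against 29.1 ± 16.5 CPM (log2 -4.82 ± 0.62, adjusted p = 2.67e-05), and the interaction did not pass (-2.43 ± 0.82, adjusted p = 0.113, and 0.0331 by DESeq2). MFSD6L had 0 counts in all 3 PreC_High libraries and 112, 0 and 42 counts in PreC_Low, so that 1 PreC_Low library was at 0 as well (adjusted p = 0.00882). In tumours it had 63, 79, 46 and 9 counts in Cancer_Low and 4, 2, 0 and 0 in Cancer_High (adjusted p = 0.0289, lost in 5 of 17 fits without 1 library). Between PreC_Low and Control_Low, 0 of the 6 tested paralogues were called by edgeR or DESeq2, and 0 had an unadjusted p under 0.05. Over all tested genes edgeR called 1.07% in that comparison.

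**Figure D4:**
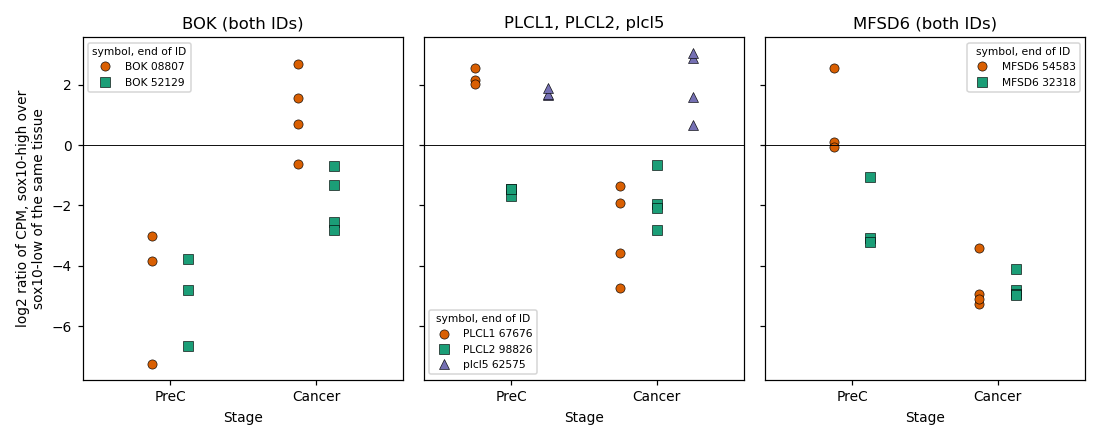
Log2 ratio of High to Low CPM in each pre-cancerous tissue and tumour, with a line at equal levels. Panels show both BOK IDs, then PLCL1, PLCL2 and plcl5, then both MFSD6 IDs. PLCL2 lies below the line and plcl5 above it in every tissue. PLCL1 lies above the line before cancer and below it in all tumours.

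Genes of the same pathways and families that were called between fractions were, like all tested genes, more often lower than higher in High cells; whether the lists differ from all genes in this was not tested. Over 119 tested genes of 6 lists, without the 6 members, 11 were called higher and 39 lower in PreC_High than in PreC_Low, where 9.28% of all tested genes were higher and 22% lower. In tumours 8 were higher and 30 lower in High, where the shares over all genes were 10.5% and 17.9%. The interaction was called higher for 3 and lower for 2, where 2.36% and 1.04% of all genes were called.

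Of myostatin and activin signalling genes, 2 of 32 were higher and 8 lower in PreC_High, 3 were higher and 4 lower in Cancer_High, and the interaction was called for 0 by edgeR (8 at an unadjusted p under 0.05, 3 by DESeq2). The median log2 difference was -0.68 before cancer and -0.13 in tumours, beside -0.15 and 0.07 over all genes. FSTL3 (ENSDARG00000025670), a follistatin-like inhibitor that binds activin and myostatin in mammals, was lower in High at both stages (log2 -3.06 ± 0.62, adjusted p = 0.00153, and -2.73 ± 0.53, adjusted p = 0.00122). So was BMP1 (ENSDARG00000028053), a protease that can release myostatin from its latent complex in mammals (-3.50 ± 0.67, adjusted p = 0.000954, and -2.91 ± 0.57, adjusted p = 0.00133).

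Of genes of the pyruvate dehydrogenase complex and its surroundings, 0 of 17 were higher and 4 lower in PreC_High, with 2 and 2 in tumours. The kinase gene PDK2 (ENSDARG00000059054), whose product inhibits the complex, had 158 CPM in PreC_Low and 18.3 CPM in PreC_High (log2 -3.10 ± 0.40, adjusted p = 4.30e-05), and 169 CPM in Cancer_Low and 17.5 CPM in Cancer_High (-3.27 ± 0.35, adjusted p = 5.64e-06). PDHB (ENSDARG00000021346), the E1 beta subunit, was higher in tumour High cells only by a small step (log2 0.80 ± 0.22, adjusted p = 0.0117) and was not called before cancer (-0.20 ± 0.25, adjusted p = 0.571). PC (ENSDARG00000051939), pyruvate carboxylase, was the list's called interaction at 5.30 ± 0.97 (adjusted p = 0.00693). It had 6.47 ± 1.78 CPM in Control_Low, 4.45 ± 2.07 in PreC_Low, 0.218 ± 0.223 in PreC_High, 0.464 ± 0.132 in Cancer_Low and 0.903 ± 0.163 in Cancer_High. Like pdha1b, it was lower in PreC_High than in PreC_Low (log2 -4.34 ± 0.78, adjusted p = 0.000603) and low in tumour Low cells. PC was not called between the tumour fractions (0.96 ± 0.60, adjusted p = 0.251). The 4 Cancer_High libraries of PC, at 0.821, 0.985, 0.720 and 1.08 CPM, were all above the 4 of Cancer_Low, at 0.338, 0.382, 0.631 and 0.506 CPM. These values rest on 27 to 72 counts, and 28.9% of tested genes had no overlap between these groups, in either direction.

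Of Bcl-2 family genes, 3 of 20 were higher and 5 lower in PreC_High, and 1 was higher and 6 lower in Cancer_High. bida (ENSDARG00000069290), a BH3-only protein gene, was lower in High at both stages (log2 -1.37 ± 0.35, adjusted p = 0.00779, and -2.11 ± 0.31, adjusted p = 0.000109). BCL2 (ENSDARG00000089109), the founding inhibitor of apoptosis, had 8.53 CPM in PreC_Low and 27.4 CPM in PreC_High, but 1.18 CPM in Cancer_Low and 0.616 CPM in Cancer_High. Its interaction of -2.61 ± 0.67 (adjusted p = 0.0427) was lost in 12 of 17 fits without 1 library and with the replicate block (adjusted p = 0.0811).

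Of phospholipase C and IP3 receptor genes, 1 of 22 was higher and 14 lower in PreC_High, and 0 were higher and 10 lower in Cancer_High, with medians of -1.87 and -1.003. ITPR1 (ENSDARG00000074149), an IP3 receptor, had 122 and 6.22 CPM in PreC_Low and PreC_High and 47.1 and 2.69 CPM in Cancer_Low and Cancer_High (log2 -4.29 ± 0.46, adjusted p = 1.05e-05, and -4.13 ± 0.40, adjusted p = 2.57e-06). PLCG2 (ENSDARG00000068763), a phospholipase C of immune cells, was lower in High at both stages too (-2.18 ± 0.49, adjusted p = 0.00318, and -3.60 ± 0.45, adjusted p = 2.32e-05). The macrophage marker sum was lower in High than in Low at both stages, and its part in the PLCG2 values was not tested. The list's called interaction, PLCH2 (ENSDARG00000059960) at 2.45 ± 0.59 (adjusted p = 0.0299), came from a larger Low excess before cancer (-4.31 ± 0.50) than in tumours (-1.86 ± 0.39). That call was lost in 7 of 17 fits without 1 library and with the replicate block (adjusted p = 0.108).

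Of phospholipase A2 and cyclin A genes, 2 of 11 were higher and 3 lower in PreC_High, and 1 was higher and 3 lower in Cancer_High. PLA2G4A (ENSDARG00000017141), a cytosolic phospholipase A2, had 0, 1 and 0 counts in the PreC_High libraries and 3.61 CPM on average in PreC_Low, then 0.520 CPM in Cancer_High and 5.36 CPM in Cancer_Low. Its interaction was called (adjusted p = 0.0156), but its size rests on the near-zero PreC_High counts. The second ID of that symbol, PLA2G4A (ENSDARG00000024546), was lower in High at both stages (log2 -3.90 ± 0.58, adjusted p = 0.000128, and -4.49 ± 0.52, adjusted p = 1.03e-05).

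Of MFSD transporter genes, 3 of 17 were higher and 5 lower in PreC_High, and 1 was higher and 5 lower in Cancer_High. MFSD9 (ENSDARG00000074728) was higher in PreC_High (log2 4.76 ± 0.92, adjusted p = 0.000992). Its tumour difference did not pass in edgeR with all libraries (1.68 ± 0.69, adjusted p = 0.0797). It did with the replicate block (adjusted p = 0.00662) and by DESeq2 (1.63, adjusted p = 0.0465). It also passed without PreC_Low 3 and Cancer_Low 4 (3.53, adjusted p = 4.41e-05). mfsd10 (ENSDARG00000086786) was higher in PreC_High (1.68 ± 0.44, adjusted p = 0.00845). Its interaction of -2.16 ± 0.57 (adjusted p = 0.0475) was lost in 13 of 17 fits without 1 library and with the replicate block (adjusted p = 0.0636).

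In Cancer_Low against Control_Low, 17.2% of all tested genes were called higher and 15.5% lower. The lists of the 4 genes that were low in tumour Low cells had no common direction. Of myostatin and activin genes 1 of 32 was higher and 8 lower (median log2 -0.52), and of pyruvate dehydrogenase genes 0 of 17 were higher and 5 lower, though with a median of 0.03. Of Bcl-2 family genes 8 of 20 were higher and 3 lower (median 0.80), and of phospholipase A2 and cyclin A genes 6 of 11 were higher and 0 lower (median 1.20). The median of all genes was 0.16.

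Position in the genome was not used in the choice, and the order of genes was taken from the RefSeq table of assembly GRCz12tu. It differs from the build danRer10 of the counts, so no coordinates are given. mstnb, proca1, pdha1b and PLCL1 could be placed, and the symbols BOK and MFSD6, each shared by 2 IDs, could not. By symbol, 14674 of the 23299 tested IDs could be placed, and unplaced ones were passed over. Of the 40 nearest placed and tested genes, 5 on each side, 4 were called higher and 13 lower in PreC_High. In Cancer_High 6 were higher and 8 lower, and 2 had a called interaction, both higher. Over all tested genes the shares were 9.28% higher and 22% lower before cancer, 10.5% and 17.9% in tumours, and 2.36% with a higher interaction. With 10 genes around each member, the counts that follow describe these genes and were not tested against those shares.

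Near mstnb, 2 of 10 genes were called higher in PreC_High and none lower, where 9.28% and 22% of all tested genes were. Their median was log2 1.18, beside -3.58 for mstnb, which was chosen on this contrast. The call of PMS1 (ENSDARG00000000476, adjusted p = 0.0454) was lost in 12 of 17 fits without 1 library. In tumours 4 of the neighbours were higher and none lower, with a median of 1.37. Of these, ADAT3 (ENSDARG00000005640) and POFUT2 (ENSDARG00000045175) lost their calls in 7 and 4 of 17 such fits, and with the replicate block. The interactions of the 10 neighbours gave 0 calls by edgeR or DESeq2 and 0 at an unadjusted p under 0.05. ORMDL1 (ENSDARG00000014333), 3 placed genes away from mstnb, is in other species a regulator of sphingolipid synthesis. It had 14.2 and 109 CPM in PreC_Low and PreC_High (log2 2.94 ± 0.73, adjusted p = 0.00605). In Cancer_Low and Cancer_High it had 20.4 and 113 CPM (2.47 ± 0.62, adjusted p = 0.00727).

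The neighbours of proca1 were, like proca1, mostly lower in PreC_High: 7 of 10 were called lower and 1 higher, with a median of log2 -3.83. In tumours 3 were lower and none higher, with a median of -1.68. camkk1b (ENSDARG00000015134), a calcium-dependent kinase kinase gene, had 273 CPM in Control_Low, 370 in PreC_Low, 17.1 in PreC_High, 5.97 in Cancer_Low and 1.29 in Cancer_High. It was lower in High at both stages (-4.44 ± 0.45, adjusted p = 7.75e-06, and -2.21 ± 0.36, adjusted p = 0.000264). Its interaction of 2.23 ± 0.53 (adjusted p = 0.0293) was lost in 6 of 17 fits without 1 library and with the replicate block (adjusted p = 0.0519). dhrs11b.1 (ENSDARG00000031299) had 9.84 CPM in PreC_Low, 2.38 in PreC_High, 1.42 in Cancer_Low and 3.38 in Cancer_High. Its interaction was 3.29 ± 0.84 (adjusted p = 0.0408), lost in 12 of 17 fits without 1 library and with the replicate block (adjusted p = 0.0954). Its tumour difference did not pass (1.24 ± 0.55, adjusted p = 0.0994).

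The neighbours of pdha1b and PLCL1 had 0 called interactions by edgeR, with 2 and 1 at an unadjusted p under 0.05 and 2 and 0 called by DESeq2. Near pdha1b, 3 of 10 were lower in PreC_High, and 2 were higher and 2 lower in Cancer_High. Near PLCL1, which was higher in PreC_High, 1 of 10 was called higher and 3 lower there, and 0 were higher and 3 lower in Cancer_High. The higher call before cancer, RABL3 (ENSDARG00000040959, adjusted p = 0.0497), was lost in 14 of 17 fits without 1 library. The lower calls of gzm3 (ENSDARG00000078451) and gzm3.2 (ENSDARG00000055986) before cancer were each lost in 3 of 17.

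**Figure D5:**
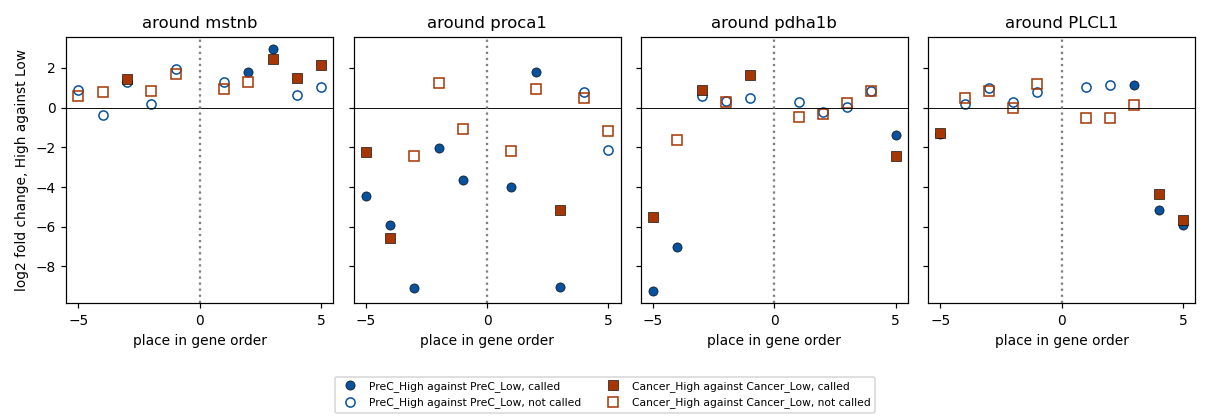
Log2 difference of High against Low before cancer and in tumours around mstnb, proca1, pdha1b and PLCL1. Shown are the 10 nearest tested genes that could be placed, with the place of the member itself marked. The neighbours of proca1 are mostly below 0 before cancer (median -3.83), while those of mstnb are mostly above it (median 1.18).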

How the data were processed

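The authors deposited raw read counts, 1 whole number for each of 31701 Ensembl IDs and 17 libraries, and these were used unchanged. STAR, HTSeq, FastQC, DESeq2 and the build danRer10 are named by the submitters' processing notes, without versions or roles, and a strand setting is not given in the sources used here. Groups and replicate numbers came from titles, and High and Low libraries were tied by the tissue codes in the labels. 1 age typed with the letter O was read as 5.0. Part of the genotype and 1 gene are not reported here. Symbols came from a reference table, and the sequences of the genes were not used here.

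The 5 groups were fitted together by the quasi-likelihood method of edgeR 4.0.16 under R 4.3.3 (limma 3.58.1), with TMM scaling, robust shrinkage and filterByExpr (minimum count 10, total 15), which kept 23299 genes. A gene was called at a p under 0.05 after Benjamini-Hochberg adjustment. The SE is the absolute log2 fold change over the square root of F. Correlations used log2 CPM with a prior count of 2. The fit was also run on simulated counts, drawn for independent libraries with a common dispersion for all genes. The simulation held no tissue effect and no outlying library, so it did not bear on these features of the data.

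Members and lists were chosen with earlier results of these data known, and paralogues after the counts were seen. List symbols (IDs) matched exactly (55), apart from capitals (67) or after dropping the paralogue letter (57), and 15 had no match. The text names members, up to 2 called genes per list and comparison with the smallest adjusted p, called neighbours, SOX10 and the 3 genes most like each member whose mean log2 CPM was 0 or more; not all are discussed. The photoreceptor sum without gnb1b and the screen for genes high in 1 library were added after the data were seen.

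The tissue pairing comes from the labels. Residuals of same-tissue High and Low libraries correlated at 0.306, 0.312, 0.331 and 0.426 in Cancer and at 0.0229, -0.00862 and 0.0750 in PreC. Alternatives were RLE scaling, no filter, DESeq2 1.42.0, the replicate block, each library left out, and, added later, PreC_Low 3 and Cancer_Low 4 both left out. In libraries with indexes 1 to 9, 60.8 to 77.8% of counts from 20 to 100 were even, against 51.2 to 53.9% in Cancer, and its part in the results was not tested.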

Additional observations from a re-analysis of the deposited data

Results flagged for a closer look

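A single library stood far from the other 3 of its group in several genes. As a share of the group's whole range, the gap to the nearest library was 0.99 for mstnb and 0.911 for proca1 (both Cancer_High 2) and 0.914 for BOK (ENSDARG00000008807, Cancer_High 3). It was 0.873 for MFSD6 (ENSDARG00000054583, Cancer_High 2 at 1.83 CPM), 0.865 for BOK (ENSDARG00000052129, in Cancer_Low) and 0.868 for SOX10 (Cancer_Low 4). The limit above which gaps are listed here was preset, meant to be passed by chance in about 1 in 20 groups. How often CPM values of these data pass it was not measured, and the chance of each gap was not computed.

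The High against Low difference of PLCL1 had the opposite sign in every tumour from that in every pre-cancerous tissue, with an interaction of -5.33; this difference was not tested, since PLCL1 was chosen on it.

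Over all tested genes edgeR called 792 interactions, and those given here are only the ones among the pathway and neighbour genes. They included PC (ENSDARG00000051939) at 5.30 and PLA2G4A (ENSDARG00000017141) at 5.94, both called in every alternative (highest adjusted p = 0.0394 and 0.0473). The size of the second depends on the prior count. BCL2 (ENSDARG00000089109) at -2.61, PLCH2 (ENSDARG00000059960) at 2.45, mfsd10 (ENSDARG00000086786) at -2.16, camkk1b (ENSDARG00000015134) at 2.23 and dhrs11b.1 (ENSDARG00000031299) at 3.29 each lost their call in 6 or more of 17 fits without 1 library, with highest adjusted p-values of 0.1003, 0.108, 0.115, 0.0841 and 0.103.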

How the results depend on the processing

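The sign of all 6 genes' High against Low differences held under RLE scaling, no filter, DESeq2, the replicate block and both doubted libraries left out. With 1 library left out, Cancer_High against PreC_High ran from -0.32 (without Cancer_High 2) to 4.56 for mstnb and from -0.19 (without Cancer_High 2) to 2.83 for proca1, and the tumour High against Low value of BOK from -0.090 (without Cancer_High 3) to 2.11. PreC_Low against Control_Low ran from -0.41 to 0.20 (without Control_Low 1) for proca1 and from -0.26 (without PreC_Low 2) to 0.42 for BOK, with -0.037 without Control_Low 1 and -0.013 without Control_Low 3. RLE scaling moved the median interaction of all genes by -0.13 and the median of PreC_Low against Control_Low by -0.12.

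The number of called interactions, 792 (550 higher, 242 lower), was 2169 by DESeq2, 417 with the replicate block (207 higher, 210 lower) and 1388 without PreC_Low 3 and Cancer_Low 4. It ran from 396 to 1218 with 1 library left out, at 396, 443, 516 and 1218 without PreC_Low 1, PreC_Low 2, Cancer_Low 1 and Cancer_Low 4. Among pathway genes the 5 called interactions became 16, 2 and 12 under the same 3 settings and 2 to 8 with 1 library left out. Among neighbours the 2 became 4, 0 and 4, then 1 with RLE scaling and 0 to 2 with 1 library left out. The 17 neighbours called before cancer became 10 to 18. PreC_Low against Control_Low, with 250 calls, gave 1497, 438 and 162, and 50 to 442 with 1 library left out. The cause of these changes was not tested.

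The replicate block gives High and Low libraries of a tissue a common term, but tissues of the same number at other stages share it. A fit with a term for each tissue was not run. Calls that changed under the replicate block are given beside the genes the text names. Libraries with few reads of a gene, such as PreC_High for BOK and PLA2G4A (ENSDARG00000017141), give imprecise ratios.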
